A study of Mus musculus with 2 samples.

Results

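Forkhead genes encode transcription factors that share the forkhead DNA-binding domain and are ordered into lettered groups, of which FoxO is one. The values described here are those of the forkhead genes outside the FoxO group, taken by symbol alone: every probe set whose single annotated gene symbol is Fox followed by a letter and a number, with Foxo1, Foxo3, Foxo4 and Foxo6 left out. The rule found 39 genes among 22296 annotated symbols. They had 442 of 318760 probe sets with 1 symbol, a probe set being a small group of array probes that the platform reads as 1 value. One of the 39, Foxl2os, is a noncoding RNA of the strand opposite Foxl2, and Foxf1a is an older symbol of Foxf1.

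The series compared AgRP neurons, feeding-promoting cells of the hypothalamus named for agouti-related peptide, collected by fluorescence-activated sorting from mice of mixed genetic background. One array held cells labelled FoxO1 KO (knockout) and 1 array held cells labelled FoxO1 heterozygous KO, so that the comparison group also carried a FoxO1 knockout allele. Mice of both groups were littermates matched for age and sex. The labels do not give their age, the promoter that drives a Cre, or how many mice were behind an array. No test can be made, since each genotype has 1 array. Every difference below is the log2 value of the KO array minus that of the heterozygous array, and the SD beside it is over the probe sets of the gene, not over mice.

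Forkhead factors of several groups bind a shared core sequence, TGTTTAC or close variants, and FoxO factors, FoxO1 among them, are moved out of the nucleus by insulin signalling. The other groups have varied roles. FoxP and FoxK proteins are repressors found in many cells, FoxA proteins open chromatin in endoderm and midbrain, FoxC and FoxF proteins act in vessels and mesenchyme, Foxj1 drives motile cilia and Foxm1 drives mitosis. Values under a floor were set aside: a probe set counted if its average of the arrays was 5.86 or more, which is the middle value of all probe sets. A gene was evaluated where at least 3 of its probe sets passed, and its difference is the median over them. The floor marks brightness, not detection, and levels of different genes cannot be ranked on an array.

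Of the 39 forkhead genes, 33 were evaluated, through 302 probe sets. None was at least 2-fold higher or lower with 75% or more of its probe sets that way, against 1.13% of all 16639 evaluated genes higher and 1.12% lower. Such shares of 33 genes come to under 1 gene, so a count of 0 is near the background. With the limit at 1.5-fold the count was again 0 in each direction, against 3.28% of all genes higher and 4.9% lower. Differences of the 33 genes ran from -0.49 (Foxj3) to 0.49 (Foxm1), with a median of -0.10 and quartiles of -0.21 and -0.04. The median over all evaluated genes was -0.11, with quartiles of -0.29 and 0.09.

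Among the 33 genes 27 lay below 0, or 81.8%, where 65.2% of all evaluated genes lay below 0. The evaluated genes as a whole also lay below 0, with a median of -0.11, while the median over all probe sets was 5.85 on each array. Set against the median of all genes in place of 0, 15 forkhead genes were lower and 18 higher, and their own median became 0.01. At the level of single probe sets the share below 0 was 60.5% for forkhead genes (188 of 311 over the floor) and 57.4% for all probe sets with 1 symbol.

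**Figure D1:**
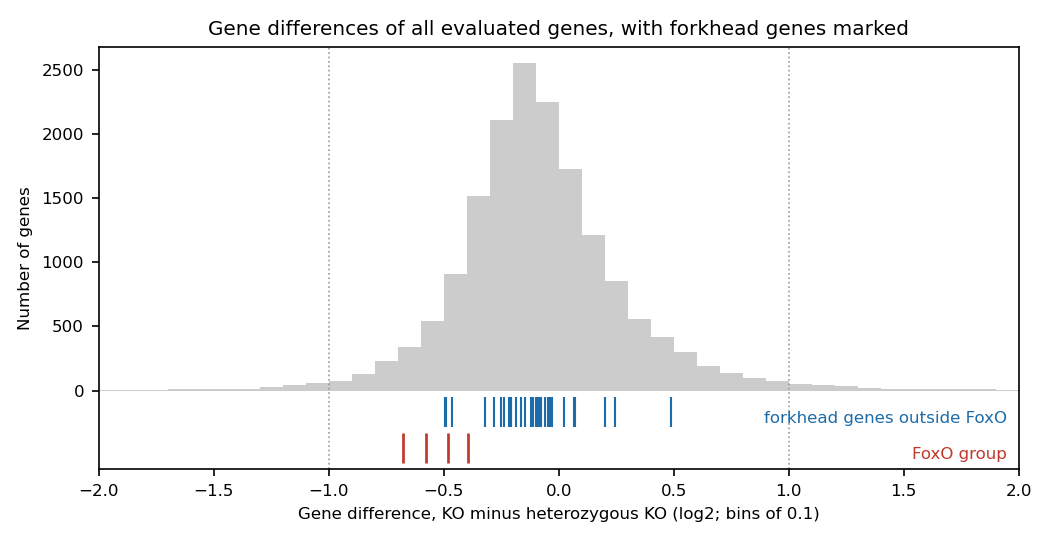
Number of evaluated genes (vertical axis) by KO minus heterozygous KO difference on the log2 scale (horizontal axis, cropped at -2 and 2; dotted lines at a 2-fold difference). Blue ticks mark the 33 evaluated forkhead genes, all between -0.49 and 0.49, and red ticks the 4 FoxO genes, between -0.68 and -0.39.

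The FoxO genes, which include the targeted gene, lay lower than most of these. Foxo1 levels were 7.46 (KO) and 7.98 (heterozygous), with a difference of -0.48 (SD 0.53) and 8 of 8 probe sets lower. Foxo3, Foxo4 and Foxo6 were at -0.68, -0.58 and -0.39, none past the 2-fold limit. Over the 4 FoxO genes 33 of 39 probe sets were lower (84.6%), beside 57.4% of all probe sets with 1 symbol over the floor. Of the 33 genes outside the group 3, Foxj3, Foxn2 and Foxj2, had a difference as low as that of Foxo6. The share of all evaluated genes as low was not computed, and their lower quartile was -0.29. Foxo4 was not stable in direction, at 0.06 over the 4 probe sets above a floor at the 75th percentile.

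**Figure D2:**
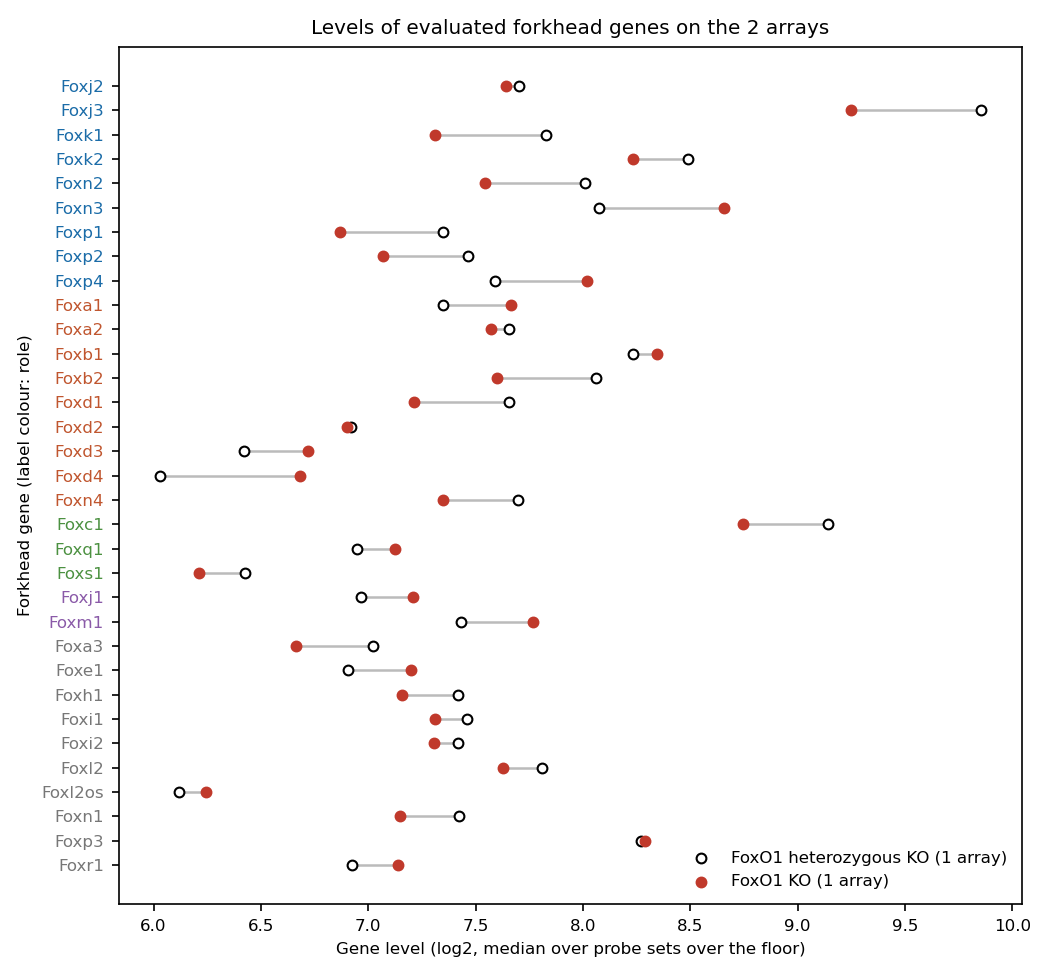
Level of each evaluated forkhead gene (log2, median over its probe sets over the floor) on the KO array (red) and the heterozygous array (open circles), 1 array each, with names coloured by role. Foxj3 stood at 9.25 and 9.85 and Foxm1 at 7.77 and 7.43; levels compare the arrays within a gene, not genes with each other.

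The broadly expressed regulators Foxj2, Foxj3, Foxk1, Foxk2, Foxn2, Foxn3, Foxp1, Foxp2 and Foxp4 were all evaluated and held 155 of the 311 forkhead probe sets over the floor. This grouping by textbook role, and the others below, was made after the values were seen. Their median difference was -0.18, with 7 below 0 and 2 above, where 65.2% of all evaluated genes lay below 0. Foxj3, a factor studied in muscle and the germ line, had levels of 9.25 (KO) and 9.85 (heterozygous) and a difference of -0.49 (SD 0.98). Of its 23 probe sets 17 were lower, 73.9% and so just short of the 75% rule. Examples of the lower ones are 11.2 against 11.7 and 10.7 against 11.2. One probe set ran far the other way, at 8.77 on the KO array against 5.46, a difference of 3.32.

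Foxn2 had nearly the same difference from fewer probe sets, -0.49 (SD 0.93, levels 7.54 and 8.01, 6 of 8 lower). Its 2 lowest probe sets were 6.74 against 9.05 and 7.48 against 8.89, and its others lay between -0.63 and 0.57. Foxj2, a close relative of Foxj3, was at -0.46 (SD 0.80), with 7 of 10 probe sets lower. Its medians were 7.64 and 7.70, closer than the difference, since each is taken separately. The Foxj2 probe sets disagreed in sign at the extremes, from 5.49 against 7.12 to 10.8 against 9.69. The probe set at 5.49 was under the floor on the KO array and passed it only through the heterozygous array, where it is high. The 3 genes kept their sign in each of 11 alternative summaries, with ranges of -0.52 to -0.23 for Foxj3, -0.58 to -0.32 for Foxn2 and -0.46 to -0.18 for Foxj2.

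Foxp1, Foxp2 and Foxp4, repressors known for roles in neurons, with FOXP2 linked to speech in humans, differed little as genes. Foxp1 was at 0.07 (SD 0.97) with 13 of 25 probe sets higher and 12 lower. Its probe sets spread from 5.65 against 7.84 to 8.27 against 5.46. Foxp4 was at 0.07 too (SD 1.03), with 12 of 21 probe sets higher. In Foxp4 3 probe sets were higher on the KO array by 4-fold or more, at 10.3 against 7.48, 8.57 against 6.05 and 8.88 against 6.73, and 1 was lower at 6.14 against 7.59. The remaining 17 lay between -0.58 and 0.83. Foxp2 was at -0.24 (SD 0.60, levels 7.07 and 7.47), with 8 of 11 probe sets lower and the lowest at 6.54 against 8.49. Only 11 of its 32 probe sets reached the floor, against 25 of 36 for Foxp1 and 21 of 25 for Foxp4.

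Foxk1 and Foxk2, repressors that bind the BAP1 and SIN3 complexes and act on autophagy and glycolysis genes, were at -0.18 (SD 1.00) and -0.11 (SD 0.57). Of 21 Foxk1 probe sets 14 were lower, 4 of them by at least 2-fold, the lowest at 4.50 against 7.55. A pair of Foxk1 probe sets ran the other way, with differences of 1.71 and 1.44. Foxk2 was split evenly, with 10 of 19 probe sets lower. Foxn3, a repressor first described in checkpoint control, was at -0.06 (SD 1.11), with 10 of 17 probe sets lower. Its levels, 8.66 (KO) and 8.07, were ordered the other way, each being a median taken separately. The widest Foxn3 probe set was at 10.8 on the KO array against 7.29, a difference of 3.47, and the next was at 1.53. The sign of Foxn3 and of Foxk2 changed in at least 1 alternative.

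**Figure D3:**
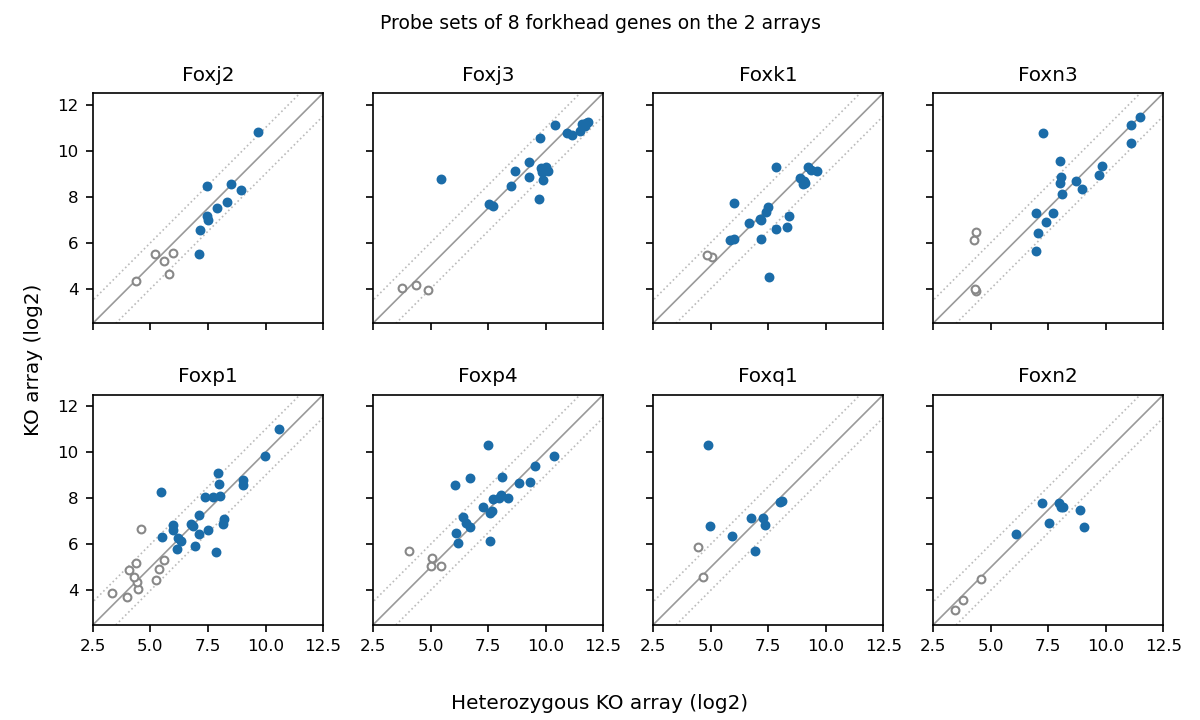
Values of single probe sets on the heterozygous array (horizontal, log2) and the KO array (vertical, log2) for 8 forkhead genes; filled points are over the floor and open ones under it, the solid line marks equal values and the dotted lines a 2-fold difference. Most points lie between the dotted lines, with single probe sets of Foxj3, Foxn3 and Foxq1 far above the upper one (8.77 against 5.46, 10.8 against 7.29 and 10.3 against 4.89).

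Wide differences were found in single probe sets and not in whole genes. Of the 311 forkhead probe sets over the floor 16 were higher by 2-fold or more and 23 lower by as much, or 5.14% and 7.40%, where 9.24% and 11% of all 215976 probe sets over the floor were. At least 4-fold higher were 7 (2.25%, against 2.56% of all), in Foxj3, Foxn3, Foxp1, Foxp4 and Foxq1, and at least 4-fold lower were 3 (0.965%, against 2.6%), in Foxk1, Foxn2 and Foxp1. Some of these had 1 value under the floor and passed it only through the array where they are high. They are the higher ones of Foxj3, Foxp1 and Foxq1 and the lower ones of Foxk1 and Foxp1. The same floor was used for the shares of all probe sets. The broadly expressed regulators supplied 31 of the 39 probe sets past 2-fold, 12 higher and 19 lower. That is 7.74% and 12.3% of their 155 probe sets, near the shares over all probe sets. The other forkhead genes had 4 higher and 4 lower among 156, or 2.56% each way. The difference between these shares was not tested, and probe sets of 1 gene are not replicates.

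In 7 genes, Foxj2, Foxj3, Foxk1, Foxn3, Foxp1, Foxp4 and Foxq1, probe sets passed 2-fold in both directions. Such genes made up 28.8% of all evaluated genes. At the other end 19 of the 33 had no probe set past 2-fold. The same share over all evaluated genes was not computed, and it depends on how many probe sets a gene has. The SD over probe sets had a median of 0.44 for forkhead genes, from 0.12 (Foxl2) to 1.99 (Foxq1), against 0.68 for all evaluated genes. Which exon a probe set lies in is not known here, so no transcript form is named.

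**Figure D4:**
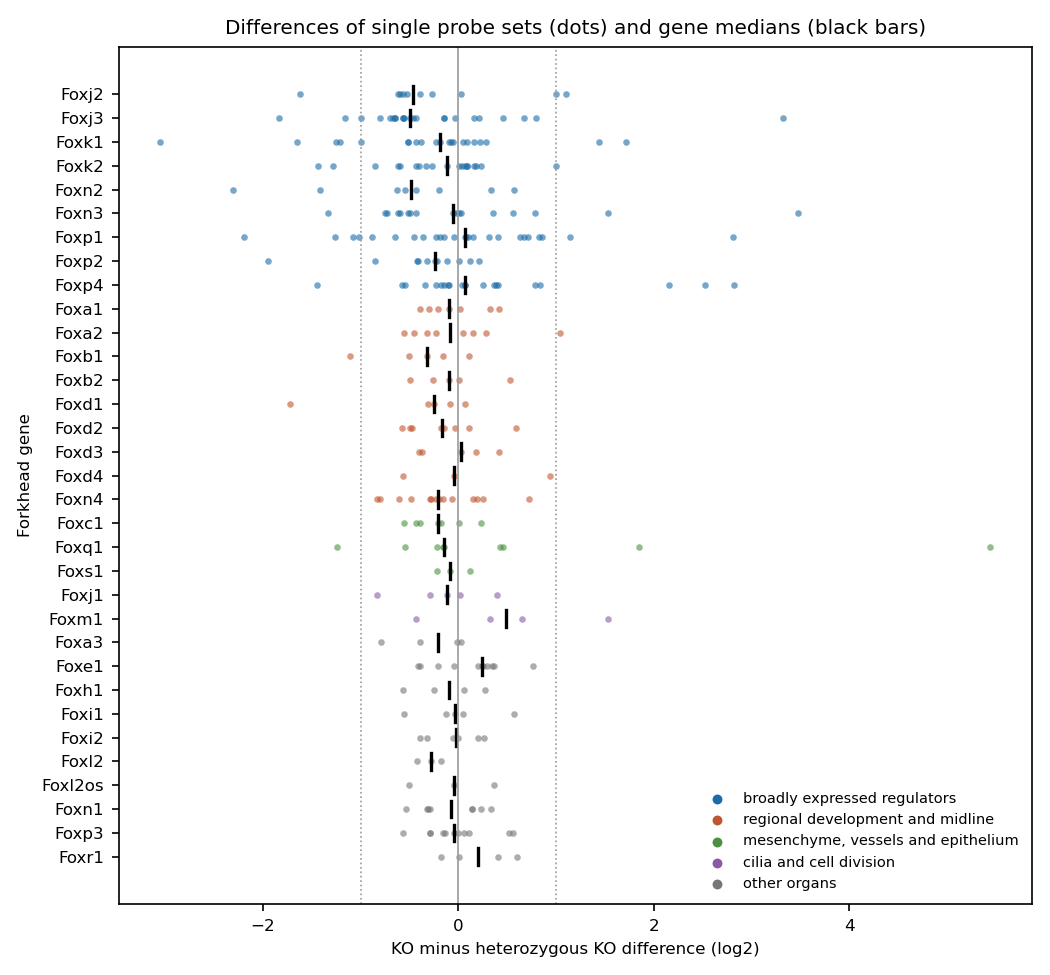
KO minus heterozygous KO difference (log2, horizontal) of every probe set over the floor (dots, coloured by role) for the 33 evaluated forkhead genes, with the gene median as a black bar and dotted lines at a 2-fold difference. Bars stay between -0.49 and 0.49, while dots run from -3.05 (Foxk1) to 5.44 (Foxq1).

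Genes of regional development and the midline came next. All 9 were evaluated, 8 lay below 0, and their median was -0.10. Over all evaluated genes the share below 0 was 65.2%. Foxb1, a gene of the mammillary body in the posterior hypothalamus, was at -0.32 (SD 0.46), with 4 of 5 probe sets lower and the lowest at 6.29 against 7.40. Foxd1, a gene of kidney stroma and of the developing hypothalamus, was at -0.25 (SD 0.72), also with 4 of 5 lower. One Foxd1 probe set was at 6.44 on the KO array against 8.16, and the other 4 lay between -0.32 and 0.07. Foxn4, a factor of retinal and spinal interneurons, was at -0.21 (SD 0.43, 10 of 14 lower). Foxd2 was at -0.17 (SD 0.39), with 6 of 8 lower.

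Foxa1 and Foxa2, pioneer factors of liver, lung and midbrain dopamine neurons, were close to 0. Foxa1 was at -0.10 (SD 0.31) with 4 of 7 probe sets lower, although its median was 7.67 on the KO array and 7.35 on the other. Foxa2 was at -0.09 (SD 0.51) with 4 of 8 lower and 1 at 6.98 against 5.94. Foxb2 stood at -0.10, Foxd4 at -0.04 and the neural crest factor Foxd3 at 0.02, the 1 gene of the 9 above 0. The signs of Foxa1, Foxa2, Foxb2, Foxd3 and Foxd4 each changed in at least 1 alternative.

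Since the groups are labelled by knockout of FoxO1, a forkhead factor, the forkhead core sequence was looked for in promoters. These ran from 250 bases before to 50 after a start site and came from RefSeq (build GRCm38.p6). Of the 39 genes 26 had an entry there, with 31 promoters. TGTTTAC, on either strand, was in 1 of these 31 (3.23%), that of Foxa1, against 3.65% of all 32851 promoters. The close variant TGTTTGC, on either strand, was in 2 (6.45%), those of Foxj3 and Foxp1, against 5.07% of all. The 3 stretches are shown because they are the matches found in forkhead genes, with the matched letters in capitals and each read 5′ to 3′ on the strand of its gene. The Foxa1 stretch is chr12:57546211-57546287 on the minus strand, that of Foxj3 is chr4:119539411-119539486 on the plus strand and that of Foxp1 is chr6:99521119-99521195 on the minus strand.
Foxa1: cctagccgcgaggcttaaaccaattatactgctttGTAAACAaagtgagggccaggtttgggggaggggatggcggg
Foxj3: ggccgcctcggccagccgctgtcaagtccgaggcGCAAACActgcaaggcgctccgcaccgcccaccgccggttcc
Foxp1: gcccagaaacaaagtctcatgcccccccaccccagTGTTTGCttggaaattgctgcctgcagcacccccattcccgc
The shares are close to those of all promoters, and a match is a run of letters, not a shown binding site. The 3 genes differed by -0.10, -0.49 and 0.07. Foxp1 has 2 more promoters in the table and neither holds either motif. The forkhead promoters were rich in G and C, with a median of 63% against 52.7% over all promoters.

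Forkhead genes of mesenchyme, vessels and epithelium were thinly measured: 3 of 7 were evaluated. Foxc1, a gene of pericytes and the meninges, had levels of 8.75 (KO) and 9.14 (heterozygous) and a difference of -0.21 (SD 0.27). Its probe sets were close together, 5 of 7 lower, from 8.92 against 9.48 to 6.86 against 6.62. Foxs1, which marks pericytes and neural crest derivatives, was at -0.09 (SD 0.17) over 3 probe sets. Foxq1, an epithelial factor of stomach and hair also found in brain endothelium, was at -0.15 with the widest spread of all 33 (SD 1.99, 5 of 9 lower). One probe set of Foxq1 was at 10.3 on the KO array against 4.89, and this gap of 5.44 is one that only 36 of the 215976 probe sets over the floor reached. A second Foxq1 probe set was at 6.81 against 4.96, another ran lower at 5.70 against 6.95, and the other 6 lay between -0.54 and 0.45. The first and second were under the floor on the heterozygous array and the lower one on the KO array. Each passed the floor only through the array where it is high. The Foxq1 difference ran from -0.16 to 0.65 over 11 alternatives, the highest with the mean over probe sets.

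Foxc2, the relative of Foxc1 in lymphatic and venous vessels, had only 2 probe sets over the floor and was not evaluated. All 4 of its probe sets were lower on the KO array, at 7.26 against 8.39, 5.22 against 6.26, 7.83 against 8.19 and 4.71 against 4.95. When a probe set was admitted through either array, 3 entered, and Foxc2 passed the 2-fold rule at -1.04 (SD 0.42, 3 of 3 lower). The added probe set, at 5.22 against 6.26, passed the floor only through the heterozygous array where it is high. Its own difference is the median that makes the call, and a probe set admitted only through the heterozygous array is chosen towards a lower KO value. Foxc2 was then the 1 lower gene among 35 evaluated forkhead genes, where 1.28% of all genes passed. The mesenchymal factor Foxl1, the next coding gene beside Foxc2 in RefSeq, was also lower in 4 of 4 probe sets and stood at -0.44 (SD 0.10) with no floor. Foxf2, a pericyte gene that lies between Foxq1 and Foxc1, was at 0.04 over 5 probe sets with no floor. Foxf1a was at 0.16 over 3 probe sets, none over the floor.

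Markers of vessel cells, which carry several of these genes, were read beside them. Of 17 endothelial and pericyte markers 16 were evaluated, and 16 of 16 lay below 0, with a median of -0.27 and none past the 2-fold rule. Over all genes the median was -0.11 and 65.2% lay below 0. The markers ran from Pecam1, an endothelial adhesion molecule whose sign changed in 2 of 11 alternatives, at -0.05 to Cdh5, the endothelial cadherin, at -0.77 (SD 1.26, 9 of 11 probe sets lower). The median level of the list was 6.82 (KO) and 7.31 (heterozygous). In sorted cells, fewer cells of a type and less RNA per cell cannot be told apart, and the part of vessel cells in the Foxc1 and Foxc2 values was not tested.

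Foxj1, the master factor of motile cilia in ependymal cells, was at -0.12 (SD 0.45), with 3 of 5 probe sets lower. Its levels, 7.21 (KO) and 6.97 (heterozygous), were ordered the other way, each being a median taken separately. Of 22 ciliary genes that act under it 17 were evaluated, with 10 above 0 and 7 below, a median of 0.04 and none past the 2-fold rule. Of all evaluated genes 65.2% lay below 0. The highest was the cilium filament gene Tekt1 at 0.50 (4 of 5 probe sets higher), and the lowest Ccdc113 at -0.86 (6 of 8 lower). Ccdc113 passed the rule in 3 of 11 alternatives, the lowest at -1.12.

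Foxm1, the factor of late cell cycle genes, had the highest difference of the 33, 0.49 (SD 0.81), from 4 of 12 probe sets over the floor. These were 7.09 against 5.56, 7.94 against 7.29, 7.91 against 7.58 and 7.63 against 8.06, so 3 were higher and 1 lower. The probe set at 7.09 against 5.56 was under the floor on the heterozygous array and passed through the KO array, where it is high. Without that probe set the Foxm1 difference was 0.33, from 3 probe sets. With no floor 8 of 12 probe sets were higher and the difference was 0.33. Of 18 evaluated mitotic genes under Foxm1 13 lay below 0 and 5 above, beside 65.2% of all genes below 0. Their median was -0.23, or -0.04 with no floor, and none passed the 2-fold rule. They ran from the kinase gene Nek2 at -0.76 (3 of 4 lower; -0.03 over 11 probe sets with no floor) to the kinase gene Aurka at 0.51 (7 of 9 higher).

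Genes known mainly from other organs held no wide probe set over the floor. The 10 evaluated had a median of -0.04, where the median over all evaluated genes was -0.11. None of the 62 probe sets over the floor in the 12 genes of this set passed 2-fold in either direction. Among all 215976 probe sets over the floor, 9.24% passed that limit upwards and 11% downwards. The gap between these shares was not tested, and probe sets of 1 gene are not replicates. The thyroid factor Foxe1 was highest at 0.25 (SD 0.36, 7 of 11 probe sets higher), followed by Foxr1 at 0.20 (3 of 4 higher), which turned to -0.09 with no floor (3 of 8 higher). The ovarian factor Foxl2 was lowest at -0.28 (SD 0.12), with 3 of 3 probe sets lower, at 8.11 against 8.54, 6.45 against 6.73 and 7.63 against 7.81. Foxl2os, on the opposite strand, was at -0.04 over 3 probe sets. The liver factor Foxa3 stood at -0.21 (3 of 4 lower), the Smad partner Foxh1 at -0.09, the thymus factor Foxn1 at -0.07, the regulatory T cell factor Foxp3 at -0.05, and Foxi1 and Foxi2 at -0.03 each. Foxe3 and Foxi3 were not evaluated, with 2 and 1 probe sets over the floor. In this set 62 of 86 probe sets, or 72.1%, reached the floor, against 74.2% in the broadly expressed regulators, so passing the floor does not show that a gene was expressed in these cells.

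Agreement among the probe sets of a gene was no more common here than elsewhere. In 6 of the 33 genes (18.2%) at least 75% of probe sets were lower, namely Foxa3, Foxb1, Foxd1, Foxd2, Foxl2 and Foxn2, against 23.3% of all evaluated genes. In 2 (6.06%), Foxm1 and Foxr1, at least 75% were higher, against 9.56% of all, and with no floor Foxr1 had 3 of 8 higher.

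Partners and neighbours in function of the forkhead genes were read from lists. The FoxP partner list, the NuRD and CtBP corepressors, had a median of -0.18 over 15 genes, 10 below 0. That count is near the share below 0 over all evaluated genes, 65.2%. Its 1 gene past the rule was Chd3, a chromatin remodeller of NuRD, at -1.02 (SD 0.99, 41 of 45 probe sets lower; 8.15 against 9.15). By the same rule 1.12% of all evaluated genes were lower. Chd3 lost the call in 5 of 11 alternatives, at -0.91 to -0.98. The histone chaperone gene Rbbp4 was highest at 0.51 (13 of 15 higher). The FoxK partner list of BAP1 and SIN3 complexes had a median of -0.02 over 12 genes, from Suds3 at -0.44 to the scaffold gene Sin3a at 0.62 (20 of 27 higher), with none past the rule.

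Region markers that go with single forkhead genes were read next. The 9 dopamine neuron genes beside Foxa1 and Foxa2 had a median of -0.19, with 8 below 0, where 65.2% of all evaluated genes lay below 0. Ddc, the decarboxylase that makes dopamine and serotonin, was at -1.55 (SD 0.95) with 12 of 12 probe sets lower and levels of 7.11 and 8.55, and it passed the rule in 11 of 11 alternatives. The vesicular monoamine transporter gene Slc18a2 was highest at 0.11. The 6 evaluated mammillary genes beside Foxb1 had a median of -0.11, from Lmx1a at -0.33 to Sim1 at 0.23.

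**Figure D5:**
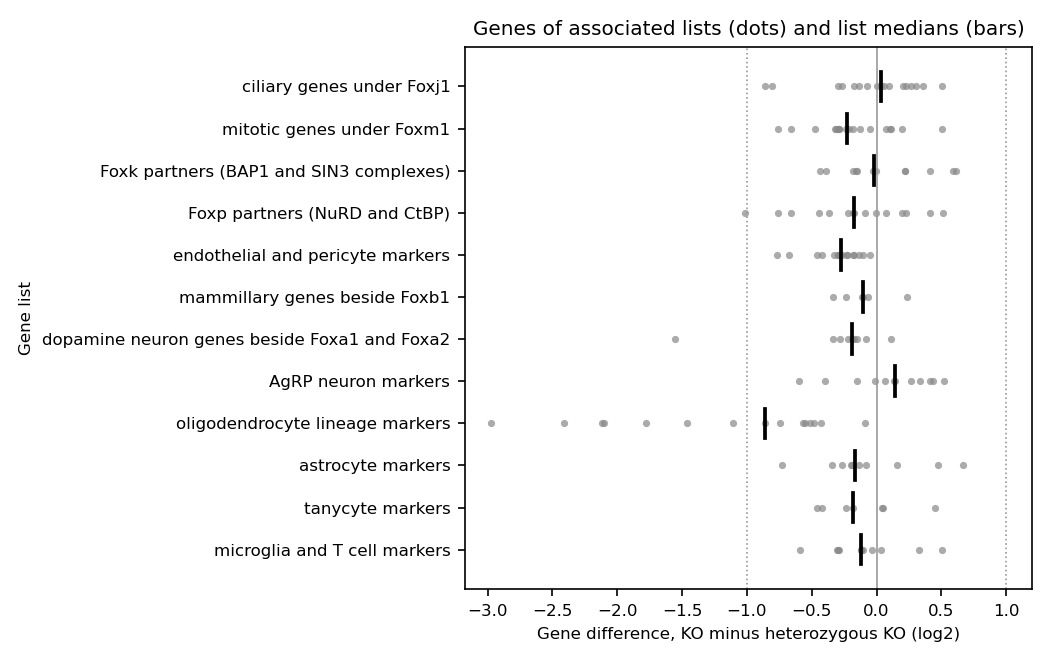
KO minus heterozygous KO difference (log2, horizontal) of the evaluated genes of 12 lists (dots), with each list's median as a bar and dotted lines at a 2-fold difference. The oligodendrocyte lineage list lies lowest with a median of -0.86, and the other 11 medians lie between -0.27 and 0.14.

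Marker lists of the sorted and neighbouring cells give the setting of these values. Over all evaluated genes the median was -0.11 and 65.2% lay below 0. AgRP neuron markers had a median of 0.14 over 12 genes, with none past the rule. Agrp was at 12.4 (KO) and 12.0 (heterozygous), with a difference of 0.27. The list ran from the ghrelin receptor gene Ghsr at -0.60 to the melanocortin receptor gene Mc3r at 0.52. All 15 evaluated oligodendrocyte lineage markers lay below 0, with a median of -0.86 and a median level of 6.97 on the KO array against 8.59. Of these, 7 were at least 2-fold lower by the rule, against 1.12% of all evaluated genes. Among the 7 were Ugt8a at -2.98, Pdgfra at -2.41, Mag at -2.12 and Cnp at -2.10. Sox10 was the highest of the list at -0.09. Astrocyte markers had a median of -0.16 (7 of 10 below 0, Slc1a3 -0.73, Gfap 0.66, or -0.03 under a floor raised to the 75th percentile), tanycyte markers -0.19 (4 of 7, Vim -0.46, Gpr50 0.45) and microglia and T cell markers -0.12 (8 of 11, Cd4 -0.59, Aif1 0.50). Evaluated forkhead differences ran from -0.49 to 0.49, and those of the oligodendrocyte list from -2.98 to -0.09. The part of these cells in the forkhead values was not tested.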

How the data were processed

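The deposited table held 1 log2 value for each of 1235936 probe sets on 2 arrays, 1 FoxO1 KO and 1 FoxO1 heterozygous KO. That the scale is log2 was read from the values, which ran from 2.55 to 14.1 and from 2.53 to 14.1. Per the submitters' processing notes the authors used RMA and Partek; RMA usually gives arrays a common distribution, which hides any difference in total RNA. Software versions, the build and the annotation are not stated in the labels.

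Probe sets were joined to the platform annotation, and 6684 with several symbols were left out. A gene's level was the median over its probe sets with a mean at or above 5.86, where at least 3 passed; its difference was the median of their KO minus heterozygous differences. A call needed a difference of at least 1 in size and 75% of probe sets agreeing. Of the 39 forkhead symbols 38 were current in RefSeq and 1 was an older symbol. The forkhead genes and the 12 lists (160 genes, 145 evaluated) were chosen with earlier results of these data known; 1 further list is not reported here. Named were forkhead genes past the 2-fold rule, the 6 highest and 6 lowest, those with roles in brain, glia, vessels or dividing cells, and up to 4 members of each list past the rule (where none passed, the extremes); others, such as Foxc2's neighbour Foxl1, were named after their values were seen. The summary was tried on shuffled probe set differences with added gene shifts larger than any evaluated forkhead gene difference. Smaller shifts were not tried. Python 3.11.15, numpy 2.4.6, pandas 2.3.3 and matplotlib 3.10.9 were used. Precision is limited by having 2 arrays.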

Additional observations from a re-analysis of the deposited data

How the results depend on the processing

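The summaries were repeated without a floor, with one at the 75th percentile or one reached on either array, with the mean of probe sets, with a minimum of 1 or 5 probe sets a gene, the trend on level removed, repeated quantile normalisation, centring on the median over genes and probe sets with several symbols; leaving out each gene's probe set of largest size was chosen after seeing the data. No forkhead gene was at least 2-fold higher in any of them, with the 1.5-fold rule or with no rule on agreement, and 1 was lower, Foxc2, with the floor on either array, through a probe set admitted only by the heterozygous array where it is high. The median over forkhead genes ran from -0.16 to 0.01, the latter by centring. Of 33 forkhead genes 16 kept their sign in each of 11 alternatives that evaluated them and 17 did not. None of the genes of the lists was at least 2-fold higher at first; 1 (Ctbp2) passed above the 75th percentile and 1 with the floor on either array (Aif1, at 1.28). At least 2-fold lower were 9 of the 145 evaluated genes of the lists, against 1.12% of all evaluated genes, and 7 to 11 over the alternatives. List medians moved by less than the SD over their members in all 132 repeats. No paired analysis was possible because each genotype has 1 array.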

Other observations

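Probe sets under the floor enter no gene value. Of 131 such probe sets of forkhead genes 8 were higher on the KO array by 2-fold or more and 6 lower by as much, where 7.01% and 7.36% of all probe sets with 1 symbol under the floor were. Past 4-fold were 3, all higher: Foxp3 at 6.34 against 4.02, Foxn3 at 6.48 against 4.35 and Foxp1 at 6.65 against 4.59. The 4-fold shares of all probe sets under the floor were not computed, so no direction is read from these 3. A probe set shared by Foxm1 and 4933413G19Rik, left out because it names more than 1 gene, had values of 4.97 (KO) and 6.22 (heterozygous), opposite in direction to the Foxm1 value of 0.49.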
